A study of Sus scrofa with 9 samples.

Results

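The array carried 12544 probes, and 142 of them (1.13%) stood at least 2-fold above both neighbouring probes in each of 3 hybridizations without being among the brightest probes of the array. These local peaks were found by a rule on the 3 scans taken at medium gain of the scanner's photomultiplier tube (PMT). A probe was taken when its log2 intensity was at least 1 above the previous and the next probe ID in all 3 scans, and when it did not lie above the bright cut in all 3. The bright cut of a scan was its median plus 3 scaled median absolute deviations of log2 intensity, and the first and the last ID were not considered. The choice therefore used the medium PMT intensities, and those values are given as a description, with no test.

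MicroRNAs are short RNAs cut from hairpin precursors, and their 5′ end sets the seed, the stretch that pairs with target messages. RNA-primed array-based Klenow extension (RAKE) locates an end of such an RNA, because Klenow polymerase extends a strand only where its 3′ end is fully paired with the probe. Where the strand is a cDNA copied from the small RNA, its 3′ end is the copy of the RNA's 5′ end. In a tiling path each probe is shifted by 1 nucleotide from the one before, so that a single defined end can give 1 lit probe between dim ones. The labels describe tiling paths of 16 probes over each predicted precursor.

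The RNA was 1 pool of small RNA from 20 tissues of 3 pigs (Sus scrofa), aged 12 months, of the breed given as vietnamite, kept on a normal diet. The tissues included liver, lung, kidney, spleen, skin, skeletal muscle, heart chambers and vessels, lymph node and white blood cells. The pool was tailed, reverse transcribed and applied to the array in 3 separate hybridizations. Every hybridization was read at each of 3 PMT settings, called low, medium and high, so that 9 scans formed 3 groups of 3. All scans thus read the same pooled RNA, and the spread between hybridizations is technical. All titles close with 1 shared number, and arrays were stripped and used again according to the methods. Whether the hybridizations shared 1 array was not tested. The tissue of origin cannot be checked on probes known only by number.

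No table given with the data paired the probe IDs with a microRNA or a sequence. The peaks are therefore described by ID and intensity, no sequence is shown, and that neighbours in ID were neighbours in a path is an assumption of the rule. The medians of the medium PMT scans were 605, 1012.25 and 1295.25 intensity units in hybridizations 1, 2 and 3. The corresponding bright cuts were 11897, 12819 and 10185. Over the whole array 440 probes were bright, and 181 probes met the contrast condition, of which 39 were bright and were set aside. The 142 remaining peaks were 1.17% of the 12102 inner probes below the cut.

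In hybridization 1 the peaks ranged from 273 to 33783.5 intensity units around a median of 3027.25, and the median of the neighbouring probes was 494. In hybridization 2 the lowest, the median and the highest peak were 456, 3983.5 and 27467, and the neighbours had a median of 810.5. In hybridization 3 they were 771, 4801 and 36793.5, and the neighbours had a median of 1096.25. The typical peak thus lay well above the middle of its scan, while its neighbours lay a little below it. On the log2 scale the median peak was 2.32, 1.98 and 1.89 above the scan median in hybridizations 1, 2 and 3, and the median neighbour lay at -0.29, -0.32 and -0.24. There were 132 peaks above the scan median in all 3 hybridizations, which is 93.0% of the peaks against 41.0% of all probes below the cut. Although the rule kept the peaks out of the bright class, 27 of them exceeded the cut in 1 scan and 16 in 2 scans, so that 99 were below it throughout.

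The contrast, taken as the log2 intensity of a peak minus that of its higher neighbour, had medians of 1.89, 1.81 and 1.60 in the 3 hybridizations, or 3.70-fold, 3.52-fold and 3.04-fold. Over all probes the median contrast was -0.22, -0.22 and -0.19. The smallest of a peak's 3 contrasts had a median of 1.53 over the peaks. It was at least 1.5 in 74 peaks, at least 2 in 38 and at least 3 in 7. Most peaks were therefore moderate steps, and only a few rose 8-fold or more above both neighbours in every hybridization.

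Probe 11856 had, with probe 3291, the highest smallest contrast. It read 10343, 14319 and 18482 at medium PMT, with contrasts of 4.41, 3.96 and 3.58. It read 5625, 8393 and 11810.5 at low PMT and 16785.5, 31520 and 34043 at high PMT. The order of the hybridizations was the same at each setting, and the low and high PMT readings did not overlap.

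Probe 3291 reached the highest contrast of any peak in hybridization 1 and was far less even. Its medium PMT intensities were 24481.5, 3113 and 7424.5, and its contrasts 6.71, 3.41 and 4.37, equal to 105-fold, 10.6-fold and 20.6-fold over the higher neighbour. At low PMT it read 13831.5, 1992 and 4738.5, and at high PMT 35655, 6867 and 14771.5. Hybridization 1 was the highest and hybridization 2 the lowest at all 3 settings, so the unevenness ran through every scan of a hybridization.

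At the other end of the rule stood the probes whose smallest contrast barely passed it. Probe 9252 read 6476, 12630.5 and 11839 with contrasts of 1.00, 1.30 and 1.10. Probe 11219 was a dimmer example and read 842, 2483.5 and 2953 with contrasts of 1.01, 1.28 and 1.04. The nearest probes outside the rule had smallest contrasts of 0.997, 0.994 and 0.984, and the first of these read 3184, 8217.5 and 9147. There were 16 peaks with a smallest contrast between 1 and 1.1 and 27 probes below the cut between 0.9 and 1, so the threshold divided a continuous range of contrasts. The same held at the bright cut, where the nearest peak read 11130.5, 13467 and 18534 and the nearest peak set aside as bright read 13358.5, 12848 and 12401.

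The peaks were grouped by their mean level above the scan median to show how height and contrast went together. The 44 peaks at 3 or more on the log2 scale had median contrasts of 2.33, 2.15 and 2.20, and 40 of them exceeded the cut in 1 or 2 scans. The 32 peaks at 2 to 3 had contrasts of 2.11, 1.90 and 1.63, the 40 peaks at 1 to 2 had 1.65, 1.76 and 1.48, and the 17 peaks at 0 to 1 had 1.43, 1.45 and 1.35. Contrast was lower in the dimmer groups down to the scan median. Below it the order turned, since the remaining 9 peaks had contrasts of 2.27, 2.67 and 3.03 while their neighbours had a median level of -3.13. Of these 9, 8 were not lit probes on an ordinary ground but ordinary probes between very dim ones.

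The step down to the adjacent IDs was set by the rule, so the profile is described over wider windows. Of the 142 peaks, 119 remained the highest probe within 2 IDs on either side in all 3 hybridizations. Within 4 IDs this held for 88 of the 141 that had such a window, within 8 IDs for 57 and within 15 IDs, which spans a tiling path, for 31. Only 9 were at least 1 above every other probe within 15 IDs. Both neighbours lay below the scan median in all 3 hybridizations at 56 peaks. The 2 neighbours of a peak were within 0.5 of each other in all 3 at 52 peaks and differed by at least 1 in all 3 at 24 peaks.

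The contrast of a peak varied more between hybridizations than that of other probes. The SD of the contrast over the 3 hybridizations had a median of 0.26 over the peaks, against 0.12 over all probes below the cut. The SD was below 0.25 at 67 peaks and above 0.5 at 34. Across the peaks, hybridizations 1 and 2 gave a Pearson's r of the contrast of 0.684 (Spearman's rho 0.703), hybridizations 1 and 3 one of 0.691 (rho 0.638) and hybridizations 2 and 3 one of 0.834 (rho 0.782). These points share the pool, the array design and the neighbours, and their range was cut by the rule, so they are a description. The scans differed in spread, with scaled median absolute deviations of 1.43, 1.22 and 0.99 at medium PMT, which setting each scan to its median does not remove. The rule took the peaks for large contrasts in these same scans, and all probes are not matched to them in level or contrast. The part of this spread in the SDs of the contrast and in the following shares was not tested. After each scan was set to its median, hybridization 1 was at least 2-fold above both others at 17 peaks (12.0%), against 3.60% of all probes. This held at 0 peaks for hybridization 2 (0.518% of all probes) and at 2 peaks for hybridization 3 (1.41%, against 0.319%). Readings at least 2-fold below both others were more even, with 6 peaks (4.23%, against 1.02%), 7 peaks (4.93%, against 0.335%) and 4 peaks (2.82%, against 0.359%) for hybridizations 1, 2 and 3.

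Because the rule used all 3 hybridizations, each was also left out of the choice in turn and used only for measurement. The 170 peaks chosen on hybridizations 2 and 3 had a median contrast of 1.64 in hybridization 1, with a range from -0.32 to 6.71. A contrast of at least 1 was met by 131 of them (77.1%), against 1.68% of the inner probes below the cut of the other hybridizations. The 155 peaks chosen on hybridizations 1 and 3 had a median of 1.72 in hybridization 2, and 138 (89.0%) reached 1 against 1.82%. The 155 chosen on hybridizations 1 and 2 had a median of 1.58 in hybridization 3, and 141 (91.0%) reached 1 against 1.83%. The mean of the 3 medians was 1.65 ± 0.07 (SD, n = 3 hybridizations). A contrast above 0 was kept by 167 of 170, 155 of 155 and 155 of 155, where the backgrounds were 25.3%, 25.9% and 26.2%. Most peaks seen in 2 hybridizations thus met the same contrast in the one left out, and the share was lowest where that was hybridization 1.

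The low and high PMT scans read the same hybridizations again, so they tested the scanner setting and not the hybridization. The contrast was at least 1 in all 9 scans at 130 peaks (91.5%), and the lowest contrast of any peak in any scan was 0.69. In the 3 medium PMT scans among the 9, every peak passed by the rule. Over all inner probes, bright ones included, a contrast of at least 1 in all 3 scans was met by 1.42% at low PMT and 1.45% at high PMT. Those shares are for 3 scans of 1 setting, so they are no matched background for the 9 scans. Applied at low PMT, the whole rule found 131 probes, of which 127 were among the 142, and applied at high PMT it found 148, of which 135 were. All 3 settings shared 124. Of the 142 peaks, 6 were bright at low PMT. The 4 probes that were new at low PMT had a median lowest contrast of 0.93 at medium PMT. The 13 that were new at high PMT had one of 0.96, and 4 of these 13 were bright at medium PMT. Only 1 peak reached the detector's ceiling in a scan, in hybridization 3 at high PMT.

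The gain from low to high PMT was tested over all probes with limma, as a difference that holds no medium PMT scan. The medium PMT scans still entered the spread of the fit, and the low and high PMT scans reread the hybridizations that the rule had used. Because the settings differ in scanner gain, a rise was built into the comparison. Within hybridizations 1, 2 and 3 the median gain over the peaks was 1.51, 1.78 and 1.49 on the log2 scale, a mean of 1.59 ± 0.16 (SD, n = 3), and an exact two-sided permutation test of the 6 scan medians gave p = 0.1, the smallest that 3 scans against 3 allow. The scans are pairs of readings of 3 hybridizations, and an exact two-sided sign-flip test of the 3 differences within hybridizations gave p = 0.25, the smallest that 3 pairs allow. At an adjusted p of 0.05 (limma, Benjamini-Hochberg over 12544 probes) 115 of the 142 peaks were higher at high PMT and 0 were lower, where 81.6% of all probes were higher. That share of the peaks was near the background. With the hybridization as a block, all 142 were called, where 99.5% of all probes were, and all 142 were called again without any 1 of the hybridizations. Without the block, 0 peaks and 0% of all probes passed when hybridization 2 or 3 was left out. At an unadjusted p of 0.05, 40 and 111 of 142 peaks then passed, against 2662 and 8534 of 12544 probes. When hybridization 1 was left out, 130 peaks (91.5%) passed the adjusted p, where 97.6% of all probes did. Probe 11856 rose by 1.67 (SE 0.41, adjusted p = 0.011 in limma), probe 9252 by 1.63 (SE 0.47, adjusted p = 0.018) and probe 11219 by 1.62 (SE 0.67, adjusted p = 0.048). The difference at probe 3291 was 1.60 (SE 0.94, adjusted p = 0.13), which did not pass. The SEs and adjusted p of these named probes are from the fit without the block, which ignores the pairing of the scans. With the hybridization as a block, the difference at probe 3291 was again 1.60, with an SE of 0.11, and it passed. Probes 11856, 9252 and 11219 had the same SE of 0.11 in that fit, as had all 142 peaks. It was thus a pooled value that does not describe the spread of any single probe, the uneven probe 3291 included. The 142 calls with the block rest on this pooled value.

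The median height of the peaks over their neighbours moved little with the scanner setting. Here local contrast was the log2 intensity minus the mean of both neighbours. High minus low PMT gave median differences over the peaks of 0.17, 0.08 and 0.06 within hybridizations 1, 2 and 3, a mean of 0.10 ± 0.06 (SD, n = 3), with p = 0.3 in the exact two-sided permutation test of the 6 scans, which ignores their pairing. All 3 differences were above 0, and the exact sign-flip test over them gave p = 0.25, again the smallest that 3 pairs allow. The difference was above 0 at 129 of 142 peaks, and it was above 0.0016, the median of all probes, at 128. The peaks had been chosen to stand above their neighbours in these same hybridizations, so these counts are a description. The mean was 0.036 when the minimum of each scan was subtracted, 0.18 with normexp and 0.0038 after quantile normalization, which left 86 peaks above 0. In limma without a block 0 peaks passed an adjusted p of 0.05, where 0.0877% of all probes were called higher and 0.128% lower. At an unadjusted p of 0.05, 4 of 142 peaks passed against 318 of 12542 probes, a similar share. With the hybridization as a block 18 peaks (12.7%) rose and 0 fell, where 1.4% of all probes rose and 1.29% fell. The changes of these 18 ran from 0.18 to 0.87 with a median of 0.44. Their median level was 0.06 above the scan median, against 2.23 for the peaks not called, and their median contrast at medium PMT was 2.37, against 1.71. They were a mixed group, with all 9 peaks that lay below the scan median, 5 at levels of 0 to 3 and 4 of the 44 at 3 or more. Probes 11856 and 3291 were among those 4. The 18 calls fell to 6, 4 and 13 when hybridization 1, 2 or 3 was left out (backgrounds 0.861%, 0.343% and 1.14%), and to 1 when the minimum of each scan was subtracted first (background 0.279%).

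Part of the peaks recurred at fixed distances in ID, a pattern that was noticed in the data and so has no test. The IDs divide into 4 equal sections of 3136. At 30 of the 142 peaks (21.1%) the same place in another section also held a peak, and these 30 occupied 11 places, 3 of them with a peak in all 4 sections, 2 with a peak in 3 and 6 with a peak in 2. At 9 of the 11 places, which held 26 peaks, the mean levels of the 4 probes, 1 per section, spanned 0.23 to 1.07 on the log2 scale, whereas the median span over all 3136 places was 2.52. A span of 1.07 or less was found at 352 places (11.2%). At the 2 remaining places the levels spanned 4.22 and 4.59, and both probe 3291 and probe 9252 belong there.

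If each section is written in rows of 56 IDs, the recurring places of like level lay in 5 rows. They were in row 1 at columns 1 and 28, in row 2 at column 56, in row 18 at columns 8 and 10, in row 29 at columns 1, 28 and 55 and in row 30 at column 2. At row 29, column 28, a peak was called in all 4 sections. The 4 probes there read 1319, 1380.5, 1643 and 2026 in hybridization 1, 2039, 2141, 2468 and 2982 in hybridization 2, and 2391, 2140, 2724 and 3363 in hybridization 3. The highest of them was 1.54, 1.46 and 1.57 times the lowest in the 3 hybridizations. The sources used here give neither the layout of the array nor which probes are controls, so what these probes hold was not tested.

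Row 18 held 8 of the 9 peaks below the scan median. In each section a square of rows 16 to 20 and columns 7 to 11 had an edge of 16 places, of which 15 were very dim (more than 2.5 below the scan median in all 3 scans) in all 4 sections and 1 in 3 sections. The centre of the square was very dim in all 4 sections, and none of the probes at the 8 places between centre and edge was. The edge and centre had median intensities of 80, 102.25 and 107.25 in the 3 hybridizations. The 8 peaks at row 18 read 390 to 455, 644.5 to 884 and 1039 to 1503, each between 2 very dim probes, and their contrasts had medians of 2.28, 2.85 and 3.39. These 8 contrasts were higher in hybridization 3 than in hybridization 1, the reverse of the other groups of peaks. They met the rule through dim neighbours. A further peak lay beside 1 very dim probe, and the other 133 had none next to them. In the fit with the block, all 8 peaks at row 18 were called for local contrast, with changes of 0.60 to 0.87. The other peaks called in that fit had changes of 0.18 to 0.44.

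Without the 30 recurring peaks 112 were left, with median intensities of 4048, 5146.5 and 6567.75 and median contrasts of 1.95, 1.81 and 1.66. The contrasts were thus nearly the same without them and the median intensities higher. Of the 18 calls of local contrast with the block, 11 were among the 30 recurring peaks (36.7%) and 7 among the 112 others (6.25%).

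The peaks were scattered over the whole ID range, with 45, 35, 21 and 41 in the 4 sections, or 40, 26, 13 and 33 without the recurring ones. Distances between successive peaks had a median of 40 IDs and a mean of 88.8, and ranged from 2, the shortest the rule allows, to 637. The distance was 2 in 6 cases, 3 in 5 and 4 in 3. It was more than 100 in 46 cases and a multiple of 16 in 5. The next peak lay within 16 IDs for 35 peaks (24.6%), against 15.7% of all probes below the cut, and the 2 shares were not tested against each other. A peak on either side lay within 16 IDs for 60 peaks (42.3%), against 28.1%. Without the recurring peaks the share with a next peak within 16 IDs was 23.2%. When peaks at most 16 IDs apart were joined, 107 groups resulted, of which 82 were single peaks, 20 were pairs, 2 held 3 peaks, 1 held 4 and 2 held 5. Taken modulo 16, the number of peaks per residue was between 5 and 13 around a mean of 8.88. Most peaks therefore stood alone.

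The distance from the peaks to bright probes was compared with that of other probes, without a test. Within 8 IDs of a bright probe lay 18.3% of the peaks and 12.5% of all probes below the cut, and within 16 IDs the shares were 26.8% and 22.9%. The median distance to the nearest bright probe was 45.5 IDs for the peaks and 45 for all probes below the cut.

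Probes 2 to 8 IDs from a peak were not compared with it by the rule, and they served to compare its sides. Where peaks lay close together, some of these probes were themselves other peaks or neighbours of other peaks. The median difference, higher minus lower IDs, was -0.30, -0.21 and -0.25 in hybridizations 1, 2 and 3, a mean of -0.25 ± 0.05 (SD, n = 3), over 141 peaks. An exact two-sided sign-flip test over the 3 hybridizations gave p = 0.25, the smallest that 3 values allow. Over all probes below the cut the difference was -0.01. The lower-ID side was brighter in all 3 hybridizations at 72 peaks and the higher-ID side at 55, so neither direction was common to all peaks. The mean was -0.19 without the recurring peaks, -0.20 over 2 to 4 IDs and -0.07 over 2 to 15 IDs.

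The 39 peaks set aside as bright were higher than the 142 and had brighter neighbours. Their median levels were 5.59, 4.69 and 3.93 above the scan median in hybridizations 1, 2 and 3. Their median contrasts were 2.32, 2.41 and 2.28, and their neighbours lay 2.58, 1.73 and 1.39 above the scan median where those of the 142 lay below it. The bright class was defined by intensity, so this is a description of what the cut separated.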

How the data were processed

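The deposited table held 1 fluorescence intensity per probe for each of the 9 scans, on a linear scale that the authors read from 16-bit images with the CombiMatrix imager, with no negative values and no stated background correction or normalization. All 9 columns were matched to scans by accession, and 0 columns of other samples were present. Each column was taken as log2 intensity, and no probe was filtered. Contrasts within a scan need no scaling between scans. The members and the lists of comparisons were chosen with earlier results of these data known.

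The limma package (version 3.58.1, in R 4.3.3) compared high with low PMT by lmFit and eBayes over all 9 scans in 3 groups, without a block, with Benjamini-Hochberg adjustment over all probes. Same-numbered scans of different PMT settings are readings of 1 hybridization, and their residuals correlated at 0.919 to 0.971 in 9 pairs, against -0.804 to 0.0831 in 18 pairs of different number, so a block on hybridization was fitted as an alternative. Other values were computed in Python 3.11.15 with numpy 2.4.6, scipy 1.17.1 and pandas 2.3.3. Replicates are technical, and their number limits the precision. The scripts were tested on simulated data. Probes were named by rule: the 2 peaks with the highest and the 2 with the lowest smallest contrast.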

Additional observations from a re-analysis of the deposited data

How the results depend on the processing

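The count of 142 peaks was 359, 74 and 38 at contrast thresholds of 0.5, 1.5 and 2, and 216 when 2 of 3 scans sufficed. It was 313 with neighbours 2 IDs away, 91 with neighbours 1 and 2 IDs away, and 155 to 170 when 1 hybridization was left out. The contrast in the hybridization not used for the choice, 1.65, was 0.96 and 2.19 for choices at 0.5 and 1.5, 2.13 against the mean of both neighbours, and 1.58 to 1.72 over the single hybridizations. The 115 calls of gain became 0 after median subtraction or quantile normalization, which remove the shared gain, and 0 to 130 with 1 hybridization left out. The median gain was -0.0074 after quantile normalization. With the hybridization block the calls were 142. With the block plus a scaling they were 7 (median), 2 (75th percentile), 0 (median and minimum subtracted) and 52 (median and normexp). The 7 were all up, the 2 were 1 up and 1 down, and the 52 were 51 up and 1 down. Of all 12544 probes, 227 rose and 903 fell with the median, and 26 rose and 2217 fell with the 75th percentile. With median and minimum 0 rose and 99 fell, and with median and normexp 1897 rose and 3010 fell. The 0 calls of local contrast became 18 with the block, and 18 with the block and median subtraction or without probes at the ceiling. They were 1 with the block and minimum subtraction. The block and normexp gave 59 peaks up and 0 down, where 387 of 12542 probes rose and 348 fell. The calls were 7 with the block and without recurring peaks, and with the block 6, 4 and 13 without hybridization 1, 2 or 3. The share with a next peak within a window was 16.2% for 8 IDs, 42.3% for 32 IDs and 40.7% at a contrast of 0.5. The median local contrast change, 0.10, was 0.0038 ± 0.0071 after quantile normalization, with hybridization 2 at -0.0021 and 86 of 142 peaks above 0, 0.036 after minimum subtraction and 0.18 after normexp. It was 0.067 to 0.12 with 1 hybridization left out, and the block and median subtraction cannot change it. The side difference kept its direction under all 8 of its alternatives. The combinations with the block, the sign-flip tests of gain and local contrast and the omission of recurring peaks were chosen after seeing the data. Technical replicates of 1 pool and unknown probe contents limit every value.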

Other observations

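The mirror image of the rule, a probe at least 1 below both neighbours in all 3 medium PMT scans, was met by 110 probes, all of them below the bright cut, with median depths of 2.30, 2.42 and 2.40. Of these troughs 26 had a bright neighbour, and 31 of the 142 peaks had a trough next to them. By the rule a peak lies at least 1 above each neighbour, which is 1 side of the trough condition. Part of this overlap was thus built in, and the counts are a description. At 10 places a trough was found in all 4 equal sections of the IDs, which accounts for 40 of the 110. Very dim probes recurred more completely still, since 132 of 144 lay at 33 places that were very dim in all 4 sections. Of the 440 bright probes, 44 shared their place with a bright probe of another section.

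Averaged over all orders of the IDs, the same intensities would give 1255 probes that meet the rule, against the 142 observed. This is a property of the values and not a test, and neighbouring IDs resembled each other in intensity.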
